A study of Mus musculus with 12 samples.

Results

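The genes described here encode the oxidative phosphorylation machinery of the mouse retina, complexes I to V of the inner mitochondrial membrane, together with a few assembly factors that carry the same name stem. They were chosen by gene name, from names beginning with Nduf (followed by a, b, c, s or v), Sdha to Sdhd, Uqcr, Cyc1, Cox5 to Cox8, Atp5 and the mitochondrially encoded mt-Nd, mt-Co, mt-Atp and mt-Cytb. Of 126 gene models with such names, 1 (Ndufa4l2), 14 with pseudogene names and 11 with a mean under 10 counts over the 12 libraries were left out. This left 100 of the 57073 gene models in the table, 89 encoded in the nucleus and 11 in the mitochondrial genome. Complex I held 46 nuclear members (7 core subunits, 31 accessory subunits, 8 assembly factors of the Ndufaf group) and 6 mitochondrial ones. Complex II held 4 nuclear members. Complex III held 9 nuclear members and 1 mitochondrial member, complex IV 13 and 3, and complex V 17 and 1.

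The libraries were poly-A RNA of retinas from C57BL/6 mice at postnatal day 17, in 2 groups. The 6 OIR libraries came from mice with oxygen-induced retinopathy, for which the labels give 75% oxygen, and the 6 normoxic libraries came from mice in room air. No allele, transgene or further agent is given for either group. In this model high oxygen given to pups stops the growth of retinal capillaries and prunes them, and the poorly perfused retina becomes hypoxic once the pups are back in room air. Whether each library is a separate animal is not said in the labels; the p-values therefore refer to variation among these 12 libraries alone, part of which may be technical.

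Complexes I to IV pass electrons from NADH and succinate to oxygen. Complexes I, III and IV pump protons across the inner membrane, and complex V, the ATP synthase, uses the returning protons to make ATP. The mitochondrial genome encodes only a small core of these proteins and the nucleus encodes the rest, so complexes I, III, IV and V need products of both genomes. Retinal photoreceptors are packed with mitochondria and consume much oxygen, and cells short of oxygen are known to exchange some complex IV and complex I related proteins for others through hypoxia-inducible factors.

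The mitochondrially encoded mRNAs were listed at very different levels, and many of them have near-identical stretches in the nuclear genome. On mouse chromosome 1 a run of annotated pseudogenes repeats part of the mitochondrial genome. In the GENCODE M21 transcripts (build GRCm38), 681 of the 684 bases of mt-Co2 recur in Gm28661, 678 of 681 of mt-Atp6 in Gm10925, 783 of 784 of mt-Co3 in Gm28437, 342 of 348 of mt-Nd3 in Gm28438 and 294 of 297 of mt-Nd4l in Gm10222. Copies covered 63.6% of mt-Nd4 (in Gm28439), 31.2% of mt-Co1 (in Gm29216) and 21.1% of mt-Atp8 (43 of 204 bases, in Gm10925). A further pseudogene, Gm13340, matched mt-Co1 along its 1545 bases at 97.6% identity. For mt-Nd1, mt-Nd2, mt-Nd5, mt-Nd6 and mt-Cytb no other annotated transcript matched at 97% identity. The first 60 bases of mt-Atp6 and of its copy, and 60 bases of mt-Co1 and its copy, are shown because a read from them matches both places or differs at 1 base; capitals mark the 1 position at which a pair differs, and the mt-Atp6 pair has none.
mt-Atp6, chrM:7927-7986, plus strand: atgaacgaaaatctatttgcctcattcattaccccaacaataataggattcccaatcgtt
Gm10925, chr1:24614592-24614651, minus strand: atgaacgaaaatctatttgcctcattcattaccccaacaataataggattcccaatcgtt
mt-Co1, chrM:6390-6449, plus strand: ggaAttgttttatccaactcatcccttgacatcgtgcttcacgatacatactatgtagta
Gm29216, chr1:24616129-24616188, minus strand: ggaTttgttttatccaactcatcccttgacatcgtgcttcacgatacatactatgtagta

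Levels per gene length are given as FPKM, fragments per kilobase at a common depth. Rankings by FPKM depend on the lengths used. The listed length of a gene can exceed that of its longest coding transcript, as for Uqcrc1 (7373 and 1653 bases). Among the 7 members with no chromosome 1 copy or a partial one, mean levels ran from 776 FPKM (mt-Nd6) to 8539 FPKM (mt-Co1) in OIR libraries, and from 880 FPKM (mt-Nd6) to 9645 FPKM (mt-Co1) in normoxic libraries; mt-Cytb stood next with 4157 and 5040 FPKM. The 4 members with a nearly complete chromosome 1 copy were listed far lower. mt-Co2 had 68.9 FPKM in OIR and 79.5 FPKM in normoxic libraries, mt-Co3 60.8 and 74.0 FPKM, mt-Atp6 25.0 and 31.8 FPKM, and mt-Nd3 2.33 and 3.21 FPKM. The mRNAs mt-Nd4l and mt-Atp8 fell under the count minimum, mt-Nd4l with 5 counts summed over the OIR libraries and 10 over the normoxic ones, and mt-Atp8 with 0 and 1. mt-Atp8, of which only a small stretch was found in an annotated pseudogene, was the lowest. Only annotated transcripts were searched, so bases lying between the pseudogene models were not compared. mt-Co1, the highest, was matched along its length by Gm13340 at 97.6% identity, below the identity of the nearly complete copies. The sources used here do not say how reads matching several places were counted, so the listed levels of mt-Co2, mt-Co3, mt-Atp6 and mt-Nd3 are uncertain, and their fold changes may rest on a small remainder of their reads. For the same reason the listed level of mt-Nd4, with 63.6% of its bases in a copy, is uncertain. The copies themselves were listed, and did not move as one: Gm28437 was lower in OIR (log2 fold change -0.42, edgeR adjusted p = 0.0163), Gm28438 higher (2.38, edgeR adjusted p = 0.000136), and Gm28661, Gm10925, Gm28439 and Gm29216 did not pass the test (-0.09, 0.26, -0.14 and 0.03).

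**Figure D1:**
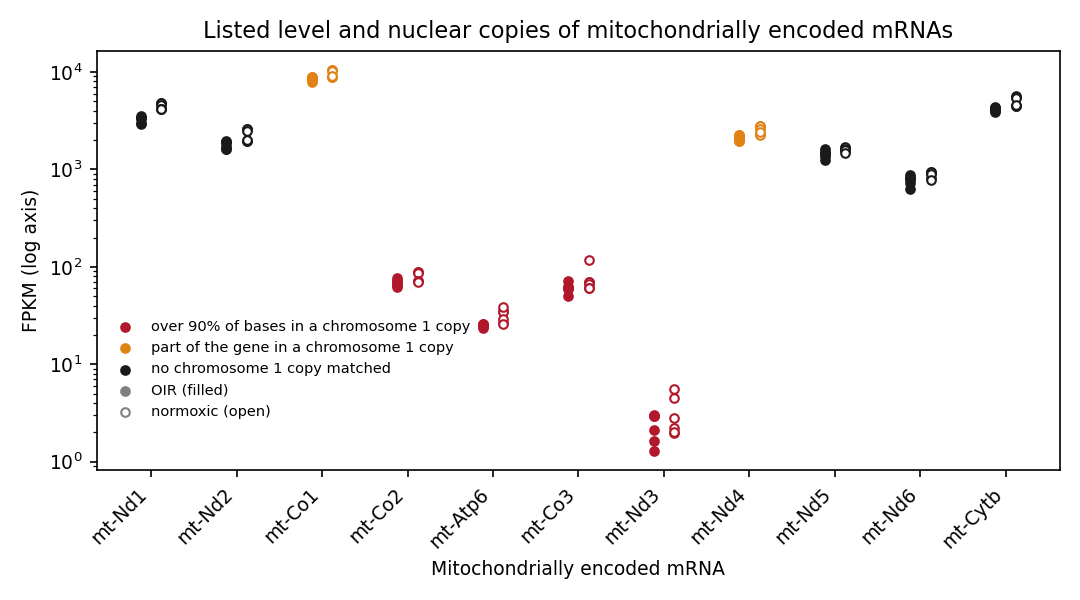
FPKM on a log axis of the 11 mitochondrially encoded members in each library, with OIR libraries as filled and normoxic libraries as open circles, coloured by the share of the gene's bases found in a chromosome 1 pseudogene. The 4 mRNAs with a nearly complete copy lie below the other 7 in every library.

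Total counts ranged from 17366045 to 21594618 in OIR and from 17361979 to 19390627 in normoxic libraries. The hypoxia genes Vegfa, Adm and Egln3 were higher in every OIR library than in any normoxic one (log2 fold changes 1.19, 4.51 and 3.26), the known direction in hypoxic tissue. Retinal identity was clear from rod markers, which summed to 48656 to 54786 CPM (counts per TMM-scaled library size) in OIR and 44278 to 49921 CPM in normoxic libraries; 3 of 10 were higher and 1 lower. Markers of inner retinal neurons were lower in OIR. All 7 bipolar and all 7 amacrine cell markers fell, with sums of 1104 to 1269 CPM in OIR against 1504 to 1702 CPM in normoxic libraries for bipolar cells, and 694 to 828 CPM against 947 to 1125 CPM for amacrine cells. Of ganglion cell markers 4 of 8 were lower (549 to 791 CPM in OIR, 756 to 1082 CPM in normoxic libraries), of Müller glia 4 of 7 lower and 1 higher (3512 to 4569 CPM and 3852 to 4615 CPM), and of cones 1 of 7 lower (1129 to 1551 CPM and 1094 to 1839 CPM). Vascular and immune markers were higher: 7 of 8 for endothelium (434 to 587 CPM in OIR, 267 to 325 CPM in normoxic libraries), 5 of 5 tested for pericytes and smooth muscle (412 to 617 CPM and 152 to 200 CPM), 7 of 8 for microglia (121 to 160 CPM and 52.9 to 62.5 CPM) and 4 of 4 tested for red cells (115 to 236 CPM and 55.5 to 133 CPM). Of markers of tissue next to the retina, 4 of 7 tested for lens were lower (1.96 to 13.3 CPM in OIR, 7.15 to 41.3 CPM in normoxic libraries, Lim2 at 0), 0 of 7 for pigment epithelium, with 0 higher (59.1 to 111 CPM and 22.1 to 142 CPM), and 1 of 5 tested for striated muscle (8.42 to 12.2 CPM and 9.65 to 16.04 CPM). In bulk RNA, fewer cells of a type and less RNA per cell cannot be told apart, and the part of these shifts in the results on the mitochondrial genes was not tested.

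Across the machinery, OIR retinas held less of the mitochondrially encoded mRNAs and nearly the same amount of most nuclear-encoded ones. All 100 members could be tested with edgeR's quasi-likelihood test, adjusted by Benjamini-Hochberg over all 18275 genes tested, of which 31.0% passed at an adjusted p of 0.05 (16.2% higher, 14.8% lower). Of the members 17 passed, 2 higher and 15 lower in OIR. Of the 11 mitochondrially encoded members 7 were lower and 0 higher (0 higher also in DESeq2 or by an unadjusted p under 0.05). All 11 log2 fold changes (OIR minus normoxic) were below 0, with a median of -0.27. This decrease was larger within replicates 1 to 3, where the median was -0.46 and 10 of 11 were lower. Within replicates 4 to 6 the median was -0.05 and only mt-Nd1 was lower. Of the 89 nuclear-encoded members 8 were lower, 2 higher and 79 did not pass, with a median of -0.03, beside a median of -0.01 over all genes tested. The nuclear members also moved little in size. Their median absolute log2 fold change was 0.07, beside 0.18 over all genes tested, and 80 of 89 lay within 0.2 either way. For 81 of 89, among them 72 of the 79 that did not pass, the 95% interval of the log2 fold change lay within 0.5 either way, a 1.41-fold difference. The 8 with wider intervals were Ndufb9, Ndufa12, Ndufb4c, Ndufaf8, Ndufaf6, Cox6b2, Cox7a1 and Atp5o.

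**Figure D2:**
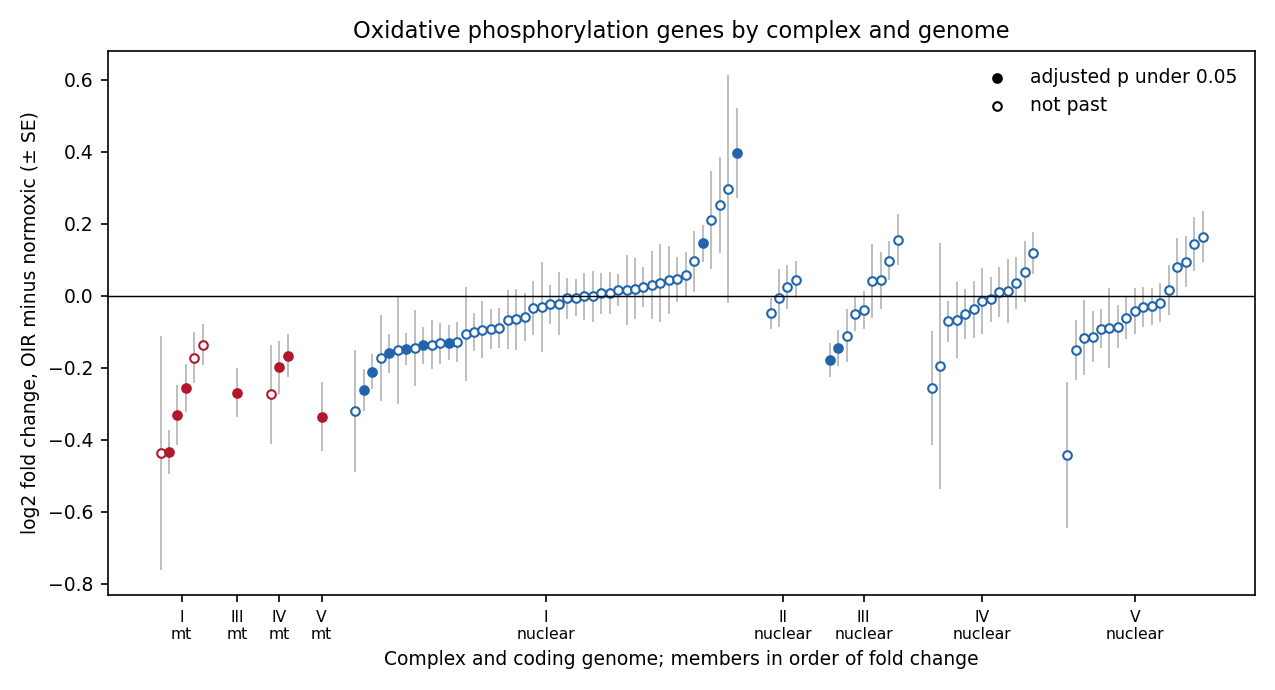
Log2 fold change, OIR minus normoxic, with its SE for each of the 100 members, in order within complex and coding genome (red, mitochondrial; blue, nuclear); filled circles passed an adjusted p of 0.05. All 11 mitochondrially encoded members lie below 0, and the nuclear members of every complex spread to both sides of it.

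Non-overlap of the groups was rarer. Of the 100 members, 5 had all OIR libraries below all normoxic ones and 1 had all above. These 6 were among the 17 past the test. OIR libraries all lay below normoxic libraries for mt-Nd1, mt-Cytb, Ndufb2, Ndufs1 and Ndufv1, and all above for Ndufaf6. Over all genes tested 6.60% had all OIR libraries below and 9.47% all above, both larger shares than among the members. Of the 17, mt-Nd1, Ndufs1 and Cyc1 passed the test under all 25 alternative settings run, with adjusted p-values of at most 0.0058, 0.0256 and 0.0362.

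The mitochondrial mRNAs of complex I encode the membrane arm through which protons are pumped. mt-Nd1 (chrM:2751-3707, plus strand), which lies where the quinone site meets the membrane arm, had 2831 to 3371 CPM with a median of 3227 in OIR libraries, against 3934 to 4639 CPM with a median of 4189 in normoxic libraries. Every OIR library was thus lower than every normoxic one. The mean was 3137 ± 243 CPM in OIR and 4239 ± 312 CPM in normoxic libraries (SD, n = 6 each), a log2 fold change of -0.43 ± 0.06 (SE) or 26.0% less (edgeR adjusted p = 2.55e-05). mt-Nd2 (chrM:3914-4951) had 1668 to 2019 CPM with a median of 1914 in OIR and 2015 to 2729 CPM with a median of 2308 in normoxic libraries. The groups overlapped by a few CPM, and the log2 fold change was -0.33 ± 0.08 (edgeR adjusted p = 0.00558). mt-Nd4 (chrM:10167-11544) had 2672 to 3227 CPM with a median of 2936 in OIR and 3134 to 3922 CPM with a median of 3455 in normoxic libraries (-0.26 ± 0.07, edgeR adjusted p = 0.00673), again with a small overlap.

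The remaining complex I mRNAs did not pass. mt-Nd5 had 2302 to 2935 CPM in OIR and 2714 to 3067 CPM in normoxic libraries (log2 fold change -0.14, edgeR adjusted p = 0.0782). mt-Nd6, the only member read from the opposite strand of the mitochondrial genome, had 324 to 450 CPM and 408 to 483 CPM (-0.17, edgeR adjusted p = 0.0764). As the strand setting of the counting is not given, its counts may include reads from the other strand. mt-Nd3 rested on 91 counts over the OIR libraries and 122 over the normoxic ones (-0.44 ± 0.33, edgeR adjusted p = 0.338), so a change was not detectable at this depth. The pseudogene model Gm28438, which shares nearly its whole sequence, had 3.84 to 7.32 CPM in OIR replicates 1 to 5, 0.510 CPM in OIR replicate 6 and 0.704 to 1.14 CPM in normoxic libraries.

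mt-Cytb (chrM:14145-15288), which encodes cytochrome b, the heme protein at the quinone sites of complex III, had 4471 to 4980 CPM with a median of 4884 in OIR libraries, against 5130 to 6597 CPM with a median of 5671 in normoxic libraries. The groups did not overlap, and the log2 fold change was -0.27 ± 0.07 (edgeR adjusted p = 0.00531); the call did not hold in limma on log2(FPKM + 1), with an adjusted p of 0.102. mt-Co1 (chrM:5328-6872), the catalytic subunit of complex IV where oxygen is reduced, had the highest level of all members. It stood at 12370 to 14166 CPM with a median of 13447 in OIR and 13539 to 16429 CPM with a median of 14780 in normoxic libraries, and the groups overlapped (-0.17 ± 0.06, edgeR adjusted p = 0.0433). The call was lost, with an adjusted p of up to 0.0951, when any of OIR replicates 1 to 5 or normoxic replicates 1 to 3 was left out.

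mt-Co2, whose copper centre takes electrons from cytochrome c, had 43.7 to 52.4 CPM in OIR and 47.7 to 61.7 CPM in normoxic libraries (log2 fold change -0.20 ± 0.07, edgeR adjusted p = 0.0442). Its call was lost, with an adjusted p of up to 0.111, when OIR replicate 1, 3, 4, 5 or 6 or normoxic replicate 1, 2 or 3 was left out. mt-Co3, the third subunit of the core, had 39.0 to 57.3 CPM in OIR and 46.9 to 92.5 CPM in normoxic libraries (-0.27, edgeR adjusted p = 0.145), the highest value being that of normoxic replicate 2. mt-Atp6, the proton channel subunit of ATP synthase, had 16.1 to 18.1 CPM with a median of 17.2 in OIR and 17.8 to 26.3 CPM with a median of 21.5 in normoxic libraries, an overlap of narrow width (-0.34 ± 0.10, edgeR adjusted p = 0.0115).

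**Figure D3:**
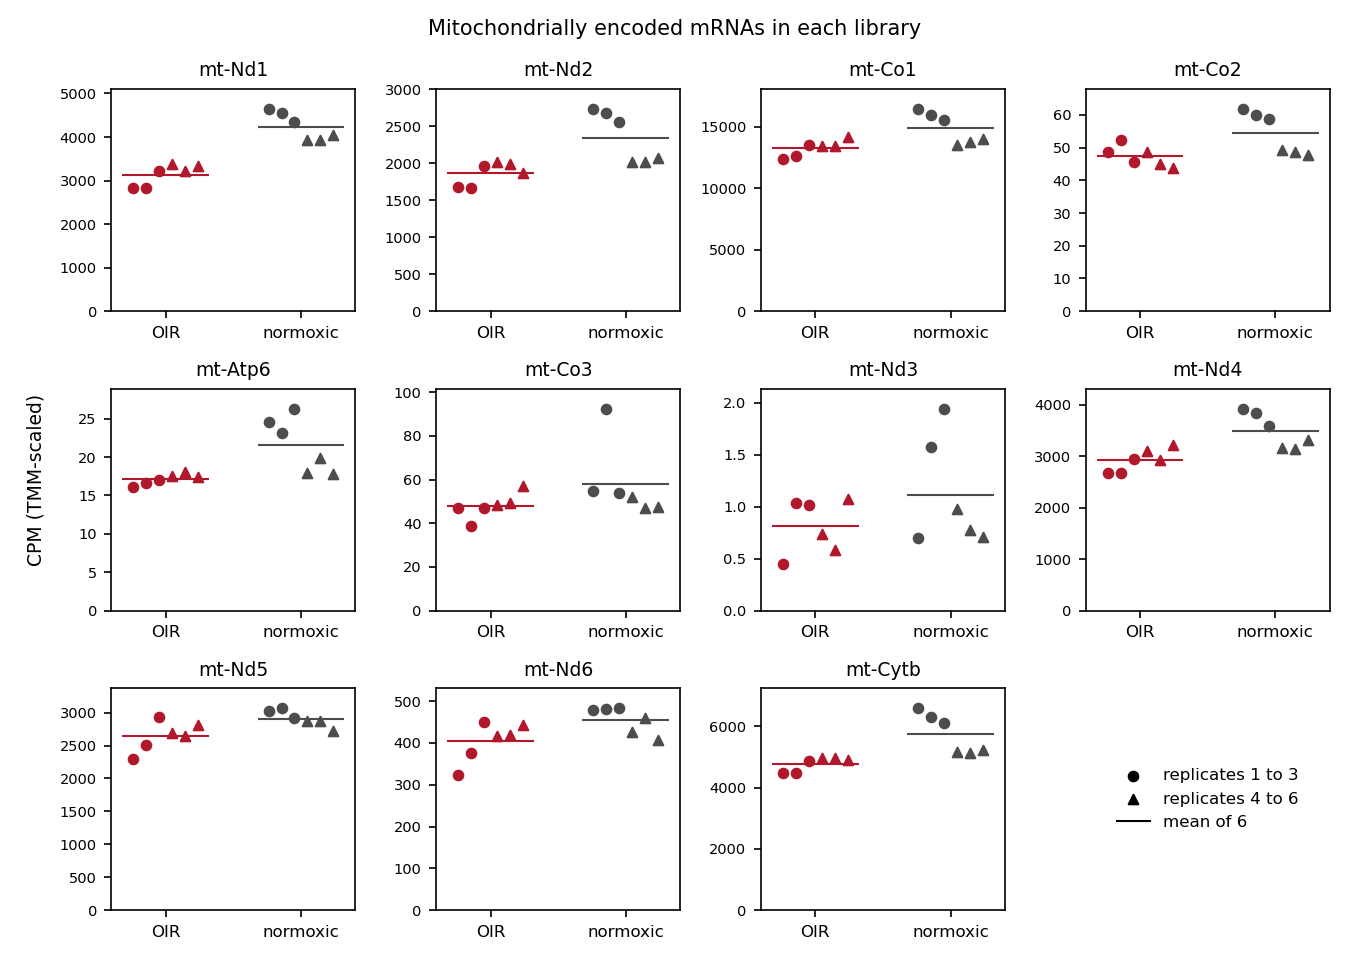
CPM (TMM-scaled) of each mitochondrially encoded member in each of the 12 libraries, OIR left of normoxic, with circles for replicates 1 to 3, triangles for replicates 4 to 6 and a line at the mean of 6. For mt-Nd1 and mt-Cytb all OIR libraries lie below all normoxic ones; the normoxic replicates 1 to 3 lie above the normoxic replicates 4 to 6 for mt-Nd1, mt-Nd2, mt-Nd4, mt-Co1, mt-Co2, mt-Co3, mt-Atp6, mt-Nd5, mt-Nd6 and mt-Cytb.

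The size of the difference depended on the replicate numbers. Normoxic replicates 1 to 3 and 4 to 6 lay apart in most of these mRNAs, and the labels say nothing of what the numbers stand for. Within replicates 1 to 3 the median log2 fold change of the 11 mitochondrial members was -0.46 and 10 of 11 were lower, where 39.0% of all genes tested passed (20.3% higher, 18.6% lower). Within replicates 4 to 6 the median was -0.05 and 1 of 11, mt-Nd1, was lower (-0.26, edgeR adjusted p = 0.00052), where 20.0% of all genes passed (11.6% higher, 8.36% lower). The 7 mitochondrial members past the test were called over these same 12 libraries, so their shared direction in both sets adds no support. Within replicates 4 to 6 mt-Nd2, mt-Nd4, mt-Cytb, mt-Co2 and mt-Atp6 stood at -0.05, -0.05, -0.06, -0.08 and -0.07 without passing. There mt-Co1 stood at -0.01 and mt-Co3 above 0 (0.08), also without passing. The 10 nuclear members past the test, called over the same libraries, kept their direction in both sets. Of these, 8 passed again within replicates 1 to 3 and 3 within replicates 4 to 6. A test of the difference between the sets, an interaction term in edgeR, passed for 7 of 11 mitochondrial members (mt-Nd1, mt-Nd2, mt-Nd4, mt-Cytb, mt-Co1, mt-Co3 and mt-Atp6) and for 1 of 89 nuclear members (Atp5d, adjusted p = 0.0251), with 8.21% over all genes tested. The difference, replicates 4 to 6 minus 1 to 3, was 0.54 for mt-Nd2 (adjusted p = 0.000139), 0.40 for mt-Cytb (adjusted p = 0.000467) and 0.34 for mt-Nd1 (adjusted p = 0.00392) on the log2 scale. The split was taken up after these values had been seen, so this test describes the libraries and adds no independent evidence.

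Other features moved with the same split. Cone markers had a median log2 fold change of -0.33 within replicates 1 to 3, with 6 of 7 lower, and of 0.27 within replicates 4 to 6, with 4 of 7 higher. Amacrine markers stood at -0.65 and -0.24, lens markers at -2.66 and -0.75, ganglion cell markers at -0.15 and -0.64, and pigment epithelium markers at 1.51 and -0.37. Their part in the result was not tested. The ribosomal RNAs of the mitochondrion showed the same pattern in part: mt-Rnr2 was lower over all 12 libraries (-0.47, edgeR adjusted p = 0.00014) and within replicates 4 to 6 (edgeR adjusted p = 0.00454), while mt-Rnr1 was lower over all 12 (-0.36, edgeR adjusted p = 0.0148) but not within replicates 4 to 6 (edgeR adjusted p = 0.989).

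**Figure D4:**
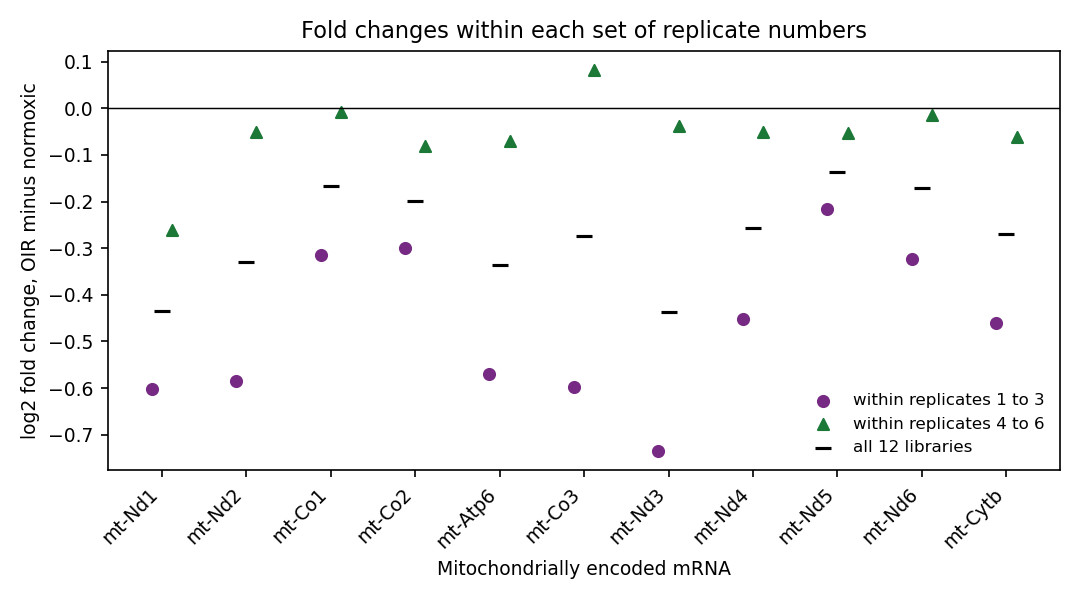
Log2 fold change, OIR minus normoxic, of each mitochondrially encoded member within replicates 1 to 3 (circles), within replicates 4 to 6 (triangles) and over all 12 libraries (bars). Every circle lies below its triangle; the median is -0.46 for the circles and -0.05 for the triangles.

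As a share of all counts, the mitochondrially encoded members took 2.90 ± 0.157% in OIR and 3.43 ± 0.302% in normoxic libraries (SD, n = 6 each). The OIR libraries spanned 2.67 to 3.02% and the normoxic libraries 3.13 to 3.76%, with no overlap. Within the OIR group, replicates 1 to 3 averaged 2.81% and replicates 4 to 6 averaged 2.99%, while within the normoxic group they averaged 3.70% and 3.16%. The nuclear-encoded members took 0.818 ± 0.0414% in OIR and 0.845 ± 0.0464% in normoxic libraries, with overlapping ranges. Nuclear counts per mitochondrial count thus came to 0.283 ± 0.0123 in OIR and 0.249 ± 0.0347 in normoxic libraries. For this ratio the OIR libraries overlapped with normoxic replicates 4 to 6, at 0.276 to 0.287, and lay above normoxic replicates 1 to 3, at 0.215 to 0.222.

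**Figure D5:**
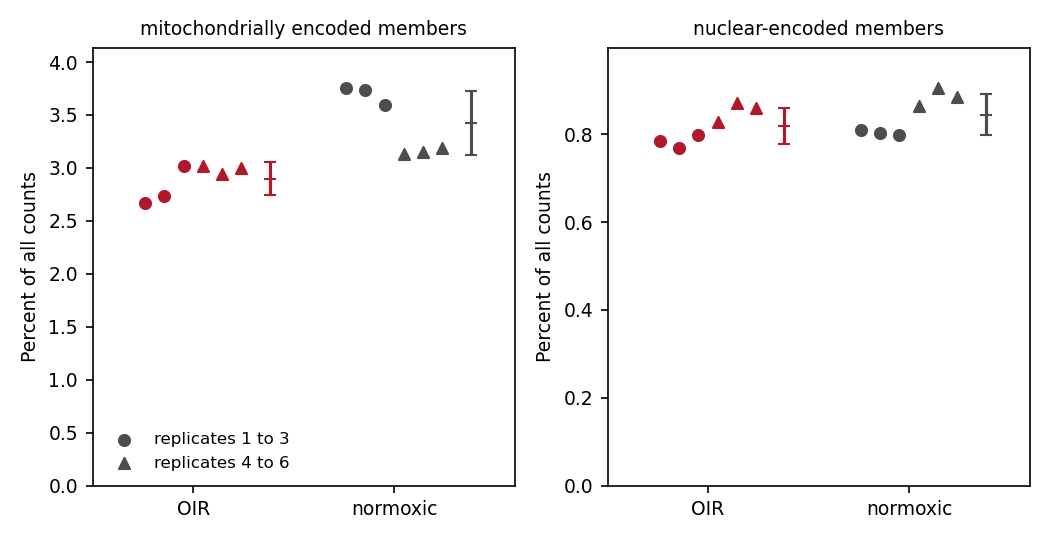
Percent of all counts taken by the mitochondrially encoded and by the nuclear-encoded members in each library, OIR left of normoxic; circles are replicates 1 to 3, triangles replicates 4 to 6, and bars give the mean ± SD of 6. The mitochondrial shares of the 2 groups do not overlap, and the nuclear shares do.

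Of the 46 nuclear-encoded members of complex I 8 passed the test, or 17.4%, beside 22.2% in nuclear-encoded complex III and 31.0% over all genes tested. The 7 core subunits, which carry the flavin, the iron-sulfur clusters and the quinone site of the peripheral arm, all had log2 fold changes below 0, with a median of -0.13, and 3 of 7 were lower. Ndufs1, the largest iron-sulfur subunit (chr1:63182755-63215992 on build GRCm39), had 83.2 to 92.5 CPM with a median of 88.0 in OIR and 93.3 to 109 CPM with a median of 103 in normoxic libraries. The groups did not overlap. The log2 fold change was -0.21 ± 0.05 (edgeR adjusted p = 0.00229), with -0.16 within replicates 1 to 3 and -0.26 within 4 to 6. The Ndufs1 model is overlapped on the opposite strand by 3 others, among them Eef1b2. Of the 89 nuclear members 40 are overlapped by another gene model, and the strand setting of the counting is not given. Ndufv1, which binds NADH and the flavin, had 156 to 179 CPM with a median of 172 in OIR libraries. In normoxic libraries it had 179 to 200 CPM with a median of 186, and these ranges adjoined without overlap (-0.15 ± 0.04, edgeR adjusted p = 0.016). Its log2 fold change was -0.22 within replicates 1 to 3 and -0.07 within 4 to 6, where it did not pass (edgeR adjusted p = 0.356).

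Ndufs8, an iron-sulfur subunit near the quinone site, averaged 71.6 ± 3.97 CPM in OIR and 78.3 ± 3.36 CPM in normoxic libraries (log2 fold change -0.13 ± 0.05, edgeR adjusted p = 0.0482). The groups overlapped, and the call was lost, with an adjusted p of up to 0.1, without any 1 of 10 libraries (all but OIR replicate 5 and normoxic replicate 1). Ndufs3 and Ndufs7 stood at the same log2 fold change of -0.13 without passing (edgeR adjusted p = 0.0907 and 0.0909). Ndufs3 passed with a block for the 2 sets of replicate numbers (edgeR adjusted p = 0.0251), and Ndufs7 within replicates 1 to 3 (edgeR adjusted p = 0.00179). Ndufv2, a core subunit of the NADH-oxidising module, stood at 0.00 (95% interval -0.15 to 0.14).

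Of the 31 accessory subunits of complex I, which surround the core and are needed for its assembly and stability, 2 were lower, 1 higher and 28 did not pass. Ndufb2, a small subunit of the membrane arm, had 22.2 to 25.6 CPM with a median of 24.5 in OIR and 27.0 to 30.2 CPM with a median of 29.3 in normoxic libraries (log2 fold change -0.26 ± 0.06, edgeR adjusted p = 0.00201). Its groups did not overlap. Its log2 fold change was -0.27 within replicates 1 to 3 and -0.25 within 4 to 6, where it did not pass (edgeR adjusted p = 0.0625). Its gene model is overlapped by 3 others, among them Braf, and the strand setting of the counting is not given. Ndufb5, also of the membrane arm, averaged 35.8 ± 1.92 CPM in OIR and 40.0 ± 1.91 CPM in normoxic libraries (-0.16 ± 0.05, edgeR adjusted p = 0.0301); its model overlaps Mrpl47 on the opposite strand, and the call was lost, with an adjusted p of up to 0.069, without OIR replicate 1 or 2 or normoxic replicate 2 or 5. Ndufv3, a subunit attached to the NADH-binding module, averaged 86.0 ± 5.81 CPM in OIR and 77.7 ± 3.88 CPM in normoxic libraries (0.15 ± 0.05, edgeR adjusted p = 0.0409). Its groups overlapped, and the call was lost, with an adjusted p of up to 0.0927, when OIR replicate 2, 3, 5 or 6 or normoxic replicate 2, 3, 4 or 5 was left out. Ndufb11, the accessory subunit with the highest level per length (116 FPKM in OIR and 122 FPKM in normoxic libraries), stood at -0.07 (95% interval -0.25 to 0.11). Ndufb4c, annotated as a processed pseudogene identical to Ndufb4 over 390 bases, rested on 122 counts in OIR and 98 in normoxic libraries.

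The 8 assembly factors, which help build complex I but are not part of it, ran from -0.14 to 0.40 in log2 fold change, and 1 was higher and 1 lower. That was 25.0%, beside 31.0% over all genes tested. Ndufaf6 (chr4:11051045-11076205 on GRCm39), known in human cells for a part in making the protein of the mt-Nd1 counterpart, had 9.86 to 14.6 CPM with a median of 10.8 in OIR and 5.91 to 9.70 CPM with a median of 8.95 in normoxic libraries. Every OIR library was higher than every normoxic one, by a log2 fold change of 0.40 ± 0.13 or 31.7% (edgeR adjusted p = 0.0221). Within replicates 1 to 3 it stood at 0.49 (edgeR adjusted p = 0.00697). Within replicates 4 to 6 it stood at 0.29 without passing (edgeR adjusted p = 0.268). The highest value was that of OIR replicate 1, and without it the call was lost (adjusted p = 0.0648). Ndufaf4 averaged 38.3 ± 2.24 CPM in OIR and 42.1 ± 1.00 CPM in normoxic libraries (-0.14 ± 0.05, edgeR adjusted p = 0.046), a call lost, with an adjusted p of up to 0.0936, without any 1 of 10 libraries (all but OIR replicates 1 and 3). Ndufaf3, the assembly factor with the highest level per length, stood at -0.03, and the other 5 did not pass either. The name pattern does not take in most assembly factors of the respiratory chain. Of 39 others listed by name, 36 were tested, 3 were higher and 2 lower (median -0.04). These calls came to 13.9%, a smaller share than the 31.0% over all genes tested. Lyrm7, a chaperone of the complex III iron-sulfur protein, was higher (0.51, edgeR adjusted p = 0.00496), and Cox10, an enzyme of heme A synthesis for complex IV, was lower (-0.24, edgeR adjusted p = 0.00823).

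Complex II, succinate dehydrogenase, is shared between the respiratory chain and the tricarboxylic acid cycle and has no mitochondrially encoded subunit. Of its 4 genes 0 passed edgeR's test, 0 had an unadjusted p under 0.05 and 0 passed in DESeq2. Log2 fold changes ran from -0.05 for Sdha, the flavoprotein, to 0.05 for Sdhc, a membrane anchor, and each 95% interval lay between -0.19 and 0.17. Sdhd, the other anchor and the member of complex II with the highest deposited FPKM, averaged 83.3 ± 5.71 CPM in OIR and 83.6 ± 12.4 CPM in normoxic libraries. By CPM Sdha stood higher, at 265 in OIR and 274 in normoxic libraries.

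In complex III the 2 nuclear subunits that carry electrons were lower, and 0 of the 9 were higher (0 in DESeq2, and 1, Uqcrq, by an unadjusted p under 0.05). Cyc1, which encodes cytochrome c1 (chr15:76227723-76230460 on GRCm39), had 152 to 181 CPM with a median of 166 in OIR and 176 to 200 CPM with a median of 187 in normoxic libraries. OIR replicate 5 reached into the normoxic range, and the other 5 OIR libraries lay below it. The log2 fold change was -0.18 ± 0.05 (edgeR adjusted p = 0.00718), with -0.19 within replicates 1 to 3 and -0.16 within 4 to 6 (edgeR adjusted p = 0.0362 in the second set). Uqcrfs1, the Rieske iron-sulfur protein and the nuclear member with the highest deposited FPKM in complex III, averaged 122 ± 7.12 CPM in OIR and 135 ± 7.94 CPM in normoxic libraries (-0.14 ± 0.05, edgeR adjusted p = 0.0358). By CPM Uqcrc1 stood higher than Uqcrfs1, at 299 in OIR and 309 in normoxic libraries. For Uqcrfs1 the 2 lengths were the same, and for Uqcrc1 they were not. The groups of Uqcrfs1 overlapped, and its call was lost, with an adjusted p of up to 0.074, without any of OIR replicates 1 to 4 or normoxic replicate 2, 4, 5 or 6. The core proteins Uqcrc1 and Uqcrc2, which hold no redox centre, stood at -0.05 and -0.04, and the small subunits Uqcrh and Uqcrq at 0.10 and 0.16 without passing.

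Of the 13 nuclear members of complex IV 0 passed edgeR's test, 0 had an unadjusted p under 0.05 and 0 passed in DESeq2. Their median log2 fold change was -0.02. Several subunits exist as a form found in most tissues and a form of heart and skeletal muscle or testis. In these retinas the general form of each pair given here held more counts than the other form. Cox6a1 had 124 ± 11.6 CPM in OIR and 123 ± 19.8 CPM in normoxic libraries (0.01), whereas its muscle form Cox6a2 had 33 counts over the OIR libraries and 18 over the normoxic ones. Cox7a2 had 67.2 ± 5.06 CPM in OIR and 66.7 ± 7.35 CPM in normoxic libraries (0.01), whereas the muscle form Cox7a1 had 0.725 and 0.827 CPM (-0.20, edgeR adjusted p = 0.709). Cox7a1 rested on 80 counts in OIR and 92 in normoxic libraries. Its 95% interval of -0.95 to 0.56 was too wide to show a small change. Cox8a had 168 ± 16.2 CPM in OIR and 169 ± 10.8 CPM in normoxic libraries (-0.01), and the level per length was the highest of the nuclear complex IV members, at 269 FPKM in OIR and 273 FPKM in normoxic libraries. Its muscle form Cox8b had 5 counts in OIR and 10 in normoxic libraries, and Cox8c had 0 in both. Cox7b stood at -0.04, and the testis form Cox7b2 had 1 count in each group. Cox6b1 had 5790 counts over the OIR libraries and 5499 over the normoxic ones (0.07), and the testis form Cox6b2 had 588 and 702 (-0.26, edgeR adjusted p = 0.241), a larger part of its pair than in the others. Ndufa4, first described in complex I and now counted with complex IV, averaged 135 ± 14.7 CPM in OIR and 136 ± 21.9 CPM in normoxic libraries (-0.02, 95% interval -0.22 to 0.19). Cox7a2l, a factor of supercomplexes of complexes III and IV, stood at 0.12 (edgeR adjusted p = 0.129). It passed with a block for the 2 sets of replicate numbers (edgeR adjusted p = 0.0232) and within replicates 1 to 3 (edgeR adjusted p = 0.0223).

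A pair of genes outside the name rule, known in other settings as targets of hypoxia-inducible factors, moved where their relatives in these complexes did not. Ndufa4l2, a paralogue of Ndufa4, had 89.8 to 118 CPM in OIR libraries, against 4.71 to 10.002 CPM in normoxic libraries. It averaged 107 ± 10.8 CPM in OIR and 7.16 ± 1.75 CPM in normoxic libraries, a 14.9-fold rise (log2 3.90 ± 0.12, edgeR adjusted p = 5.27e-13). Cox4i2, the less common form of complex IV subunit 4, had 48.6 to 57.5 CPM in OIR and 29.8 to 38.6 CPM in normoxic libraries (0.58 ± 0.07, edgeR adjusted p = 3.13e-06), with all OIR libraries above. Its general form Cox4i1 averaged 164 ± 20.9 CPM in OIR and 163 ± 14.0 CPM in normoxic libraries (0.01, 95% interval -0.16 to 0.18). Per length, Cox4i2 stood at 66.2 FPKM and Cox4i1 at 105 FPKM in OIR libraries, against 44.6 and 105 FPKM in normoxic libraries. Endothelial, pericyte and microglial markers were higher in the same OIR libraries, and which cells held the Ndufa4l2 and Cox4i2 mRNAs was not tested. Cycs, cytochrome c itself, stood at -0.15 (edgeR adjusted p = 0.192) over 12 libraries and was lower within replicates 4 to 6 (-0.28, edgeR adjusted p = 0.00256).

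Of the 17 nuclear members of ATP synthase 0 passed edgeR's test and 0 passed in DESeq2, with a median log2 fold change of -0.04. By an unadjusted p under 0.05 there were 2, Atp5o and Atp5g2. Atp5b, the catalytic beta subunit, had the highest level per length of all nuclear members, at 289 FPKM in OIR and 304 FPKM in normoxic libraries. It averaged 1232 ± 91.2 CPM in OIR and 1285 ± 92.7 CPM in normoxic libraries (SD, n = 6 each). Its log2 fold change was -0.06 with a 95% interval of -0.19 to 0.07. Atp5a1, the alpha subunit, stood at -0.04. The 3 genes for the same c-ring protein did not move as one: Atp5g1 stood at -0.11 (edgeR adjusted p = 0.25), Atp5g3 at -0.09 (0.304) and Atp5g2 at 0.16 (0.0894). Atp5g2 had 82.6 to 107 CPM in OIR and 75.9 to 97.1 CPM in normoxic libraries, with overlapping groups. It passed with a block for the 2 sets of replicate numbers (edgeR adjusted p = 0.00672), within replicates 4 to 6 (edgeR adjusted p = 0.0287), and without OIR replicate 2 or normoxic replicate 5 (edgeR adjusted p of up to 0.0413). Atpif1, the inhibitor of the enzyme and no member by name, averaged 3.45 ± 0.501 CPM in OIR and 4.57 ± 0.944 CPM in normoxic libraries (-0.40, edgeR adjusted p = 0.0607). The lowest log2 fold change of all nuclear members, -0.44 for Atp5o, came from 1.67 and 2.27 CPM and did not pass (edgeR adjusted p = 0.107). Of its transcript 76.7% recurs elsewhere in the annotation at 97% identity or more, as does over 50% of Atp5h, Atp5l, Ndufs3, Uqcrb and Cox5b, so that their levels are uncertain. None of the nuclear members past the test has such a copy.

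Promoters of the nuclear members were searched for letters known from regulators of respiratory chain genes. Nuclear respiratory factor 1 (NRF1) binds a palindrome that holds the letters GCGCATGCG. RefSeq promoters on GRCm38.p6, from 250 bases before to 50 after the start, could be matched by symbol for 75 nuclear members. Those letters, on either strand, stood in 10 of 75 (13.3%), against 3.58% of 12192 tested genes with a promoter in the table. The letters CCGGAAG of the ETS family, on either strand, stood in 25.3% of the members and 17.8% of tested genes, and AAGATGGCG of YY1, on either strand, in 10.7% and 3.04%. The 10 genes with the NRF1 letters were Atp5g2, Atp5k, Atp5l, Cox6a1, Ndufa8, Ndufa11, Ndufaf4, Ndufaf5, Uqcr11 and Uqcrc1. Ndufaf4 was lower in OIR, and the other 9 did not pass the test. A match is a run of letters and no proof of binding. The promoters of Ndufaf4 and of Cox6a1 (log2 fold changes -0.14 and 0.01) are shown as examples that share the letters; capitals mark them, where the matches on both strands overlap.
Ndufaf4, chr4:24897833-24898132, plus strand: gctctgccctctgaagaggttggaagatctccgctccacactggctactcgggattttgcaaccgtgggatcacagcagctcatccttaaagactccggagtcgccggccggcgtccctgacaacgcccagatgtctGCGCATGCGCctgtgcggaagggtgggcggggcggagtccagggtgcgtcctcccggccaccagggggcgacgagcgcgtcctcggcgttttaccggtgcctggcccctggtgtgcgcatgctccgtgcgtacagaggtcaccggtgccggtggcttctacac
Cox6a1, chr5:115348909-115349208, minus strand: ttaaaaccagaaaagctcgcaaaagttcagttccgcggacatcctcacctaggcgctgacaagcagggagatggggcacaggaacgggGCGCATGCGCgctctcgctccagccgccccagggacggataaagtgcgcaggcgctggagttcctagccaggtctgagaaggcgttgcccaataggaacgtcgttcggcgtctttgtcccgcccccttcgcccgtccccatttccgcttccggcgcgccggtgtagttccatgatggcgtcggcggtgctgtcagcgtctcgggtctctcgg

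Mitochondrial genes of neighbouring pathways passed the test at shares on both sides of the 31.0% over all genes tested. In the tricarboxylic acid cycle, which feeds complexes I and II, 4 of 14 genes were lower and 2 higher, 42.9% in all (median log2 fold change -0.06). Idh3g, a regulatory subunit of isocitrate dehydrogenase, averaged 104 ± 5.64 CPM in OIR and 128 ± 6.02 CPM in normoxic libraries (-0.29, edgeR adjusted p = 0.000106), and Suclg2, a subunit of succinyl-CoA synthetase, 9.91 ± 0.572 and 6.13 ± 1.40 CPM (0.69, edgeR adjusted p = 0.000503). In coenzyme Q synthesis 3 of 11 genes were lower and 0 higher, 27.3% in all (median -0.13), led by Coq7 (-0.31, edgeR adjusted p = 0.000512) and Coq8a (edgeR adjusted p = 0.00869). Within replicates 1 to 3, 4 of 11 were lower, and within replicates 4 to 6, 0 of 11. Of 19 tested genes for mitochondrial transcription and biogenesis 2 were lower and 0 higher, 10.5% in all (median -0.02). Polrmt, the RNA polymerase that transcribes the mitochondrial genome, averaged 49.5 ± 3.74 CPM in OIR and 59.1 ± 4.09 CPM in normoxic libraries (-0.25, edgeR adjusted p = 0.00322), and was lower within both sets of replicates (edgeR adjusted p = 0.00251 and 0.0153). Esrra, a nuclear receptor that drives respiratory genes, was lower too (-0.17, edgeR adjusted p = 0.0275). Within replicates 4 to 6 Esrra stood at -0.10 without passing (edgeR adjusted p = 0.428). Of 77 tested genes of the mitochondrial ribosome 3 were lower and 1 higher, 5.19% in all (median -0.02), among them Mrpl4 (-0.17) and Mrpl54 (0.23).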

How the data were processed

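RNA was measured in 12 retina libraries, 6 OIR and 6 normoxic, grouped by title. Per the labels' protocols, oligo-dT was used to capture poly-A RNA from total RNA. The submitters' processing notes name HISAT2 2.0.5, HTSeq, Trimmomatic and build GRCm39, with no roles. The sources used here do not give the annotation release, strand setting, read filters or treatment of reads with several matches. Per the file headers, the table deposited by the authors holds counts and FPKM for each gene.

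Counts were tested for all genes with edgeR 4.0.16 (R 4.3.3): filterByExpr (minimum count 10, total 15), TMM scaling, quasi-likelihood test, Benjamini-Hochberg adjustment over all genes tested, threshold 0.05. Levels are TMM-scaled CPM or deposited FPKM; the 95% intervals of fold changes used 10 degrees of freedom. The interaction test used the same tool with set, group and their product. The procedure was tested on simulated data. Every pair of libraries within a group differed by more than counting noise (chi-square over its degrees of freedom 2.98 to 14.1), and none was merged. The normoxic libraries formed 2 sets. Pairs within replicates 1 to 3 or within 4 to 6 stood at 2.98 to 3.91, and pairs across these sets at 11.1 to 14.1. OIR pairs stood at 3.84 to 11.3, with no such gap between the sets. The main test had no term for the sets. Correlations of the deviations of same-numbered libraries were -0.0167 to 0.118, so the replicate numbers were not taken as pairs.

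Members, gene lists, sets of replicate numbers and tests were chosen with earlier results of these data known. Named genes were, per complex, genome and role, up to 3 past the threshold with the highest and lowest fold changes, the highest FPKM, all mitochondrial mRNAs, paired tissue isoforms, Ndufa4, the c-ring genes, and Cox4i1, Cox4i2, Ndufa4l2, Cycs and Atpif1. A gene that this rule names is not reported here. From each companion list the 2 genes of smallest adjusted p were named. Other genes with values were chosen after their values were seen. Alternatives were DESeq2 1.42.0, limma 3.58.1 on log2(FPKM + 1) or (FPKM + 0.1), other scalings and filters, blocks, leaving out each library and fits within replicates 1 to 3 or 4 to 6. Nuclear copies came from blastn against GENCODE M21 transcripts (97% identity or more), and promoters from RefSeq; coordinates of the table are on GRCm39 and those of sequences on GRCm38.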

Additional observations from a re-analysis of the deposited data

Results flagged for a closer look

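A library stood apart from the other 5 of its group by Dixon's criterion at the 95% level, in 4 of 76 groups checked over 38 named members; chance flags about 1 in 20. Ndufaf6 reached 14.6 CPM in OIR replicate 1, with 9.86 to 11.2 CPM in the other OIR libraries, and 5.91 CPM in normoxic replicate 4, with 8.40 to 9.70 CPM in the other normoxic libraries. mt-Co3 reached 92.5 CPM in normoxic replicate 2, with 46.9 to 54.8 CPM in the others. Cox7a2 reached 80.7 CPM in normoxic replicate 5, with 60.5 to 67.5 CPM in the others.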

How the results depend on the processing

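No direction turned for a member past the test under any alternative. Against 2 members higher, both nuclear, 4 were higher with a block for the sets of replicate numbers and 1 with library totals that leave out mitochondrial genes. Without the filter on low counts 1 was higher, within replicates 1 to 3 there were 5 and within replicates 4 to 6 there were 4. Over all genes tested 16.2% were higher in the main fit. In these settings, in the same order, 18.3%, 15.1%, 8.96%, 20.3% and 11.6% were. Against 15 lower, 3 were lower within replicates 4 to 6. Of nuclear members, against 8 lower, 4 were lower without the filter and 2 within replicates 4 to 6. Over all genes tested 14.8% were lower in the main fit, 7.60% without the filter and 8.36% within replicates 4 to 6. In limma on log2(FPKM + 1) and with a pseudocount of 0.1, 15.1% and 15.0% were lower. Of mitochondrial members, against 7 lower, 4 were lower in limma on log2(FPKM + 1), 4 with a pseudocount of 0.1 and 1 within replicates 4 to 6, and the median log2 fold change of -0.27 became -0.46 within replicates 1 to 3 and -0.0515 within 4 to 6. The cause was not tested. Leaving out 1 library gave 1 to 3 members higher (also nuclear higher), 9 to 15 lower (9 without normoxic replicate 2), 4 to 8 nuclear lower (4 without OIR replicate 2 or normoxic replicate 2 or 5, 5 without OIR replicate 1 or 4 or normoxic replicate 6), 5 to 8 mitochondrial lower, nuclear medians of -0.05 to 0.00 and mitochondrial medians of -0.30 to -0.23. A single member was higher without OIR replicate 3, 5 or 6 or normoxic replicate 2, 3 or 4. Over all genes tested, 27.5% (without OIR replicate 2) to 31.8% (without normoxic replicate 5) passed when 1 library was left out. With a block for the replicate number 3 members were higher and 12 lower, 6 of them mitochondrial, and 13 of the 17 members past the test passed again; of the 6 numbers, only replicate 3 correlated best with its own number. In DESeq2, with the set block and with library totals alone all 17 passed, where 32.7%, 35.2% and 31.2% of genes did. Scaling moved the median of all genes from -0.01 to at most -0.03. Members with about 100 counts a group or fewer, mt-Nd3, Ndufb4c and Cox7a1, have intervals too wide to show changes of the size seen elsewhere.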

Other observations

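The pseudogene Gm10925, which repeats mt-Atp6, had 165 CPM in OIR replicate 2 and 44.0 to 56.2 CPM in the other OIR libraries, against 48.5 to 65.6 CPM in normoxic libraries. In the same OIR library mt-Atp6 itself lay within the range of its group.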
